A study of Mus musculus with 6 samples.

Results

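MHC class I presentation and the immunoproteasome were followed in mouse KP cells with and without an induced hairpin RNA against Npm1, the gene of the nucleolar protein nucleophosmin. A list of 10 genes was taken from the 48526 gene identifiers in the count files: the class I heavy chains H2-K1 and H2-D1, their light chain B2m, the peptide transporter subunits Tap1 and Tap2, the loading factor Tapbp, the immunoproteasome subunits Psmb8, Psmb9 and Psmb10, and the transcriptional regulator Nlrc5. All 10 were found and all 10 were among the 14531 genes tested.

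Class I molecules carry peptides from inside the cell to its surface, where CD8 T cells inspect them. Peptides are cut by the proteasome, of which the immunoproteasome is a form with 3 exchanged catalytic subunits. They are then pumped into the endoplasmic reticulum by the TAP transporter and loaded onto a heavy chain and B2m with the help of tapasin, the product of Tapbp. NLRC5 acts with the RFX complex at class I promoters, and interferons induce most of these genes in many cell types.

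The treated group was 3 stable KP lines grown with 100 ng/ml doxycycline, which carried the vectors pLKO.1-Tet on-shNpm1-3, -4 or -5 and had been selected with puromycin. It was compared with the same 3 lines grown without doxycycline, so that every library came from cells that carried an inducible hairpin. The lines are called line 3, line 4 and line 5 after their hairpins, and total RNA of each was sequenced once per condition. No library came from cells given doxycycline without a hairpin against Npm1, so effects of the drug and of the knockdown cannot be told apart. Nothing in the labels tells the strain of the cells, and KP is the only cell type they give.

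The 6 libraries held 24391198 to 27341036 counts in genes. Levels are given as CPM, the counts of a gene per 10 to the power 6 counts of its library, after scaling with trimmed means (TMM), and 3 counts corresponded to 0.0991 to 0.137 CPM. Npm1 stood at 67.8, 245 and 400 CPM in lines 3, 4 and 5 with doxycycline, against 2002, 1851 and 1924 CPM without it. Its log2 fold change was -3.02 (SE 0.49, edgeR adjusted p = 0.011). Among the treated libraries that of line 3 stood apart, with a chi-square per degree of freedom over genes of 108 and 80.9 against the treated libraries of lines 4 and 5, which gave 35.8 against each other; untreated pairs gave 7.86 to 22.6. It also had the largest share of counts in the 5 rows that name no gene, 47.7%, against 43.7% to 46.0% in the other 5 libraries. Most of this share was reads aligned to several places, 37.8% of its counts, against 31.4% to 34.6% in the other 5 libraries. The 7 epithelial marker genes summed to 8899 to 10608 CPM with doxycycline and 10124 to 12109 CPM without it, with the epithelial cadherin Cdh1 at 365 ± 32.2 and 408 ± 34.6 CPM (SD, n = 3 each). Each line gave 1 library per condition, and p-values of the unpaired comparison of conditions set a difference against the spread over these lines.

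The 10 genes fell into 2 classes of level, 5 with a mean of 22.1 to 189 CPM over the 6 libraries (H2-D1, H2-K1, B2m, Psmb10 and Tapbp) and 5 with a mean of 0.796 to 1.51 CPM (Nlrc5, Tap1, Psmb9, Psmb8 and Tap2). Among the abundant genes, H2-K1 fell with doxycycline and the other 4 did not pass the test. Among those near 1 CPM, Tap2, Psmb8, Psmb9 and Nlrc5 fell to between 0.235 and 0.288 of their untreated mean, and Tap1 narrowly missed the threshold. In all, 5 of the 10 genes fell and none rose, where 1.32% of all genes tested fell and 0.963% rose (quasi-likelihood test of edgeR, p adjusted after Benjamini-Hochberg, threshold 0.05). Of tested genes whose mean was 0.3 to 3 CPM 2.51% fell, and of those from 10 CPM upwards 0.808% did. The log2 fold change was below 0 for 9 of the 10 genes and for 49.6% of all genes tested. The 10 genes were chosen with earlier results of these data known. Of those that fell, Tap2, Psmb8 and Psmb9 passed the filter on low counts, given below, through the untreated libraries. These numbers of genes are therefore a description.

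**Figure D1:**
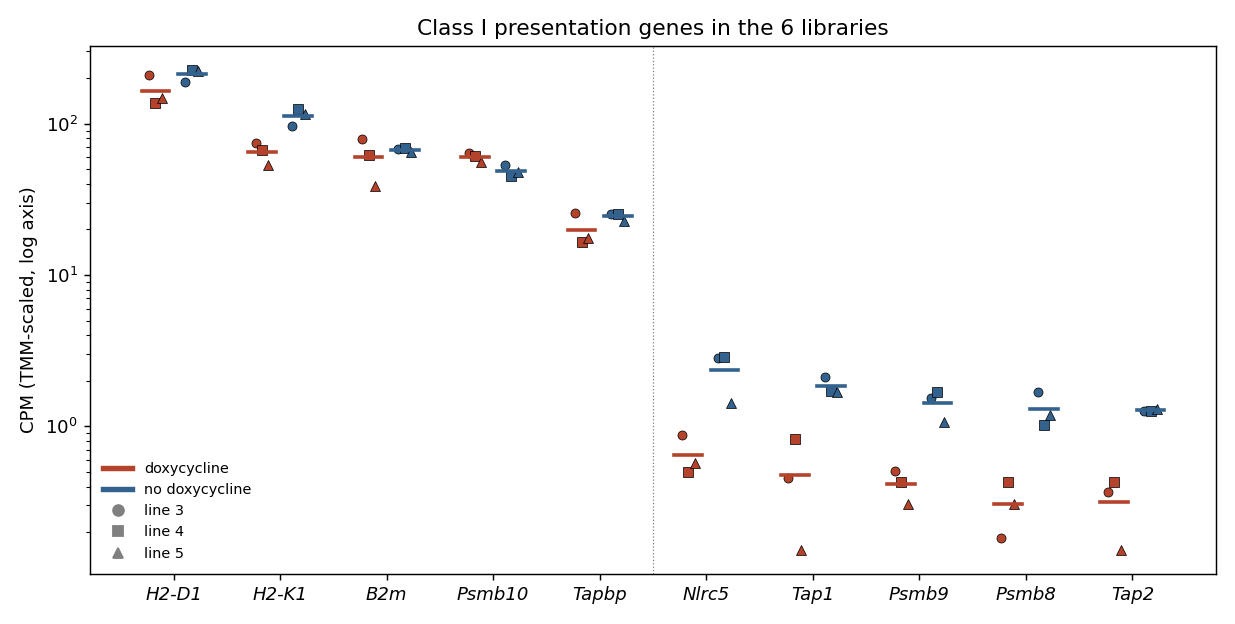
CPM (TMM-scaled, log axis) of the 10 genes in each library, with doxycycline (red, left) and without it (blue, right); symbols are lines and bars are means over 3 lines. Left of the dotted line the lowest mean is 22.1 CPM, and the 5 genes right of it lie at or under 0.870 CPM with doxycycline and at or over 1.02 CPM without it.

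The 5 calls depended on the model and on single libraries. With the line as a block (paired fit), 0 of the 10 genes passed in edgeR, with 6 lower and 1 higher at an unadjusted p under 0.05, and 0.963% of all genes passed as lower. Without the block 6 were also lower and 1 higher at an unadjusted p under 0.05, where 7.96% and 8.33% of all genes were. The adjusted p of H2-K1, Nlrc5, Psmb9, Tap2 and Psmb8 became 0.0528, 0.0545, 0.0579, 0.0668 and 0.0818, while their log2 fold changes stayed at -0.81, -1.85, -1.79, -2.03 and -2.02. DESeq2 called 6 genes (2.69% of all genes lower), limma-voom 5 (1.47%) and RLE scaling 5 (1.29%). Leaving macrophage and lymphocyte markers out of the table also gave 5 (1.13%), which takes no reads of such cells out of the class I genes. With offsets for transcript length and GC content 2 genes passed, H2-K1 and Psmb9, without the block (1.18% of all genes lower) and with it (1.14%).

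No call was made when the untreated library of line 3 or line 4 was dropped, or the treated one of line 5, where 0.356%, 0.428% and 1.15% of all genes were lower. Nlrc5 alone passed without the untreated library of line 5 (0.762% of all genes lower). Without the treated library of line 4 there were 4 calls (1.31%), and without that of line 3 there were 8 (5.79%). Dropping both libraries of a line left H2-D1 and H2-K1 for line 3 (2.71% of all genes lower), and 0 calls for line 4 (0.186%) or line 5 (0.762%).

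The promoters of the heavy chain genes and of B2m are shown because class I genes share a module of short elements there, and because 1 of these 3 genes fell while 2 did not pass. The windows run from 250 bases before to 50 bases after the start site (RefSeq, GRCm38.p6, which is the mm10 build), 5′ to 3′ on the strand of the gene. Spans of genes given below are from GENCODE, in which H2-D1 starts before its window. Capitals mark TGACG followed by ATTGG after 5 to 30 bases (the core of the X2 box and an inverted CCAAT or Y box), the core of the interferon-stimulated response element (GAAA, 2 bases of any kind, GAAA), and the NF-kappaB consensus.
H2-K1, chr17:34000298-34000597, minus strand: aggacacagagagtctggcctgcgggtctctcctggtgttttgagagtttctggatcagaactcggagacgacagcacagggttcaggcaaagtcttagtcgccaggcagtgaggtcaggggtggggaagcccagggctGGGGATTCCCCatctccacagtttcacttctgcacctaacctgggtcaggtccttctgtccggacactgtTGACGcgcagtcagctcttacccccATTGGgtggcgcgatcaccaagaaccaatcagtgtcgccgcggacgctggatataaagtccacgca
H2-D1, chr17:35262844-35263143, plus strand: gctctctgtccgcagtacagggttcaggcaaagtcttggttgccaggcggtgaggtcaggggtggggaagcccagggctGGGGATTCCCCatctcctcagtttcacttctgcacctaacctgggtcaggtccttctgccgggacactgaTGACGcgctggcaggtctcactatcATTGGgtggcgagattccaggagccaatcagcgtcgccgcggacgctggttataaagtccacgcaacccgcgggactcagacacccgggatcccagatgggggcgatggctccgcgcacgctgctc
B2m, chr2:122147437-122147736, plus strand: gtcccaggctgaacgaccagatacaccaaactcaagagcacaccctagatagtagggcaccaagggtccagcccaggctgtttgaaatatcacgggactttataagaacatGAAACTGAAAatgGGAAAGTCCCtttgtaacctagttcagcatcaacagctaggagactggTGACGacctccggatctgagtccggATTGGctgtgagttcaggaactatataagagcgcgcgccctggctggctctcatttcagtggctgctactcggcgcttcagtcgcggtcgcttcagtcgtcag
Both strands were searched in all 32851 promoter windows of the table. TGACG followed by ATTGG was found in 0.840% of them, and it was found in these 3 genes, starting at -41 in H2-K1, -101 in H2-D1 and -78 in B2m, counted from the start site. H2-K1 has a further window with a nearby start, where the pair starts at -55. The NF-kappaB consensus was found in 4.51% of all windows and in the same 3 genes, where the sites of H2-K1 and H2-D1 each match on both strands at 2 overlapping positions. The interferon-stimulated core was found in 3.44% of all windows and, among these genes, in B2m. Only the pattern given above was searched, so a variant of this element in H2-K1 or H2-D1 would be missed. Alone, TGACG was found in 20.8% and CCAAT in 37.4% of windows. The windows of Psmb8, Psmb10 and Tapbp held none of the marked elements; that of Psmb8 held a gamma-activated site, TTCNNNGAA, found in 8.30% of all windows. Tap2 and Nlrc5 have no window here.

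H2-K1 encodes one of the classical heavy chains (ENSMUSG00000061232, mm10 chromosome 17, 33996017 to 34000347, minus strand, 8 exons). It stood at 74.3, 66.7 and 52.9 CPM in lines 3, 4 and 5 with doxycycline, against 96.6, 124 and 116 CPM without it. All 3 treated libraries lay under all 3 untreated ones, as they did for 11.2% of all genes tested. Its mean was 64.6 ± 10.8 CPM with doxycycline and 113 ± 14.3 CPM without it (SD, n = 3 each), and it fell by 0.80 on the log2 scale (SE 0.16, edgeR adjusted p = 0.0281). The difference was smallest in line 3, with log2 ratios of -0.38, -0.90 and -1.14 in lines 3, 4 and 5.

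H2-D1, the other classical heavy chain gene (ENSMUSG00000073411, chromosome 17, 35262730 to 35267499, plus strand, 8 exons), had the highest level of the 10 genes. It stood at 210, 136 and 148 CPM in lines 3, 4 and 5 with doxycycline, against 188, 226 and 222 CPM without it. The treated library of line 3 was higher than the untreated one of that line, and the groups overlapped. On the log2 scale the fold change was -0.36, with an SE of 0.17, and did not pass (edgeR adjusted p = 0.336). It was -0.57 (SE 0.13, edgeR adjusted p = 0.0154) without the treated library of line 3.

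B2m, whose product is the light chain of every class I molecule (ENSMUSG00000060802, chromosome 2, 122147686 to 122153083, plus strand, 4 exons), was at 78.8, 62.0 and 38.7 CPM in lines 3, 4 and 5 with doxycycline, against 67.5, 69.0 and 65.3 CPM without it. The untreated lines were close together and the treated ones spread on both sides of them. Its log2 fold change, -0.17 with an SE of 0.21, did not pass (edgeR adjusted p = 0.757). Within a library, the counts of H2-K1 per count of B2m were 1.13 ± 0.218 with doxycycline and 1.67 ± 0.209 without it (SD, n = 3 each), with no overlap. The 2-sided exact permutation p was 0.1, below which 3 against 3 libraries taken as unpaired cannot go. For H2-D1 per count of B2m the values were 2.90 ± 0.843 with doxycycline and 3.15 ± 0.325 without it (SD, n = 3 each; 2-sided exact permutation p = 0.6).

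Reads of related class I genes can be shared. Of all 50-base stretches of the longest coding transcript of H2-K1, 8.79% also occur in transcripts of other genes, most often H2-D1, and for H2-D1 this holds for 14.3%, most often H2-Q1. At 100 bases the shares were 0% and 4.64%. The other members had 0% to 2.00% of their 50-base stretches in other genes. Reads aligned to several places have a row of their own, which held 31.4% to 37.8% of the counts of a library. By the usual setting of HTSeq such a read is not counted for a gene. The setting used is not given in the sources used here.

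**Figure D2:**
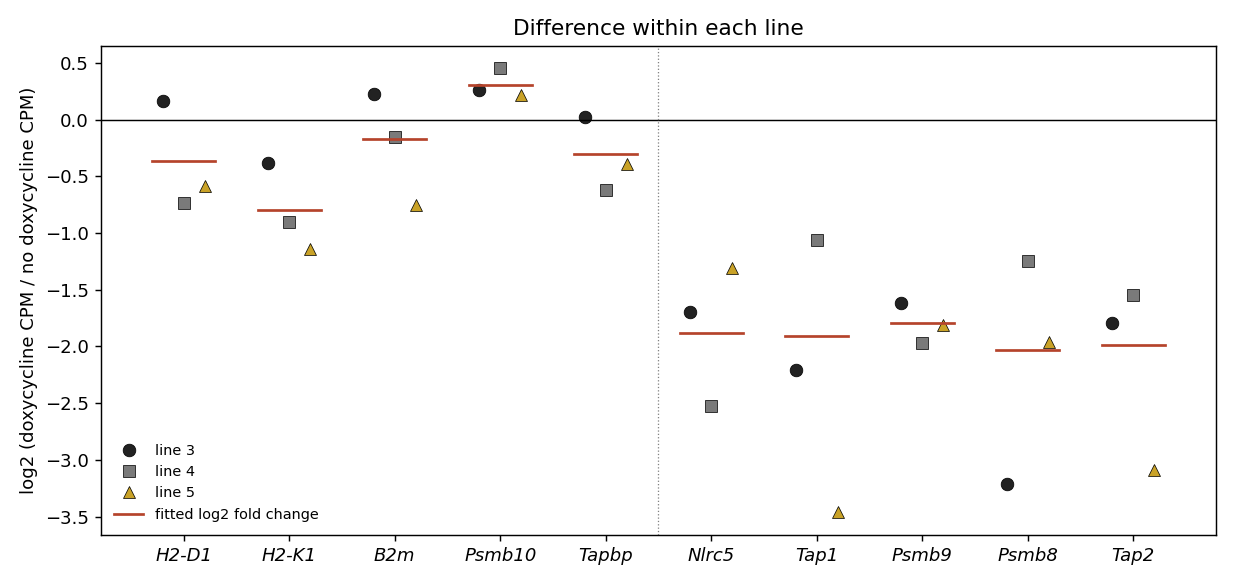
log2 ratio of CPM with over without doxycycline within line 3, 4 and 5 (symbols), with the fitted log2 fold change (red bar), for the 10 genes. H2-D1, B2m and Tapbp lie above 0 in line 3 (Tapbp at -0.09 under scaling to total counts) and below 0 in lines 4 and 5, Psmb10 lies above 0 in the 3 lines, and the 5 genes right of the dotted line lie between -3.46 and -1.06.

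Tap1 and Psmb9 stand head to head on chromosome 17. Their promoter windows share 275 bases on opposite strands, with RefSeq start sites 226 bases apart. By the GENCODE spans given for them, the 2 genes overlap at these ends. The window of Tap1 is shown because it is nearly the whole window of both genes and holds none of the elements marked above; its single TGACG has no ATTGG after it.
Tap1, chr17:34187306-34187605, plus strand: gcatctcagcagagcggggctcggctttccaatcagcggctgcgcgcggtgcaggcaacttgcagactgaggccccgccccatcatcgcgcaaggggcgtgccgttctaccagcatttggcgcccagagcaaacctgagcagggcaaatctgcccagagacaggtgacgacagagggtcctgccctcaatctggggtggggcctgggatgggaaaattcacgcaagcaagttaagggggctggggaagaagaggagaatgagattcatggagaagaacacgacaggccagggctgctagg
Tap1 (ENSMUSG00000037321, 34187553 to 34197225, plus strand) and Tap2 (ENSMUSG00000024339, 34203527 to 34216321, plus strand) encode the 2 subunits of the peptide transporter. Tap1 was at 0.458, 0.826 and 0.153 CPM in lines 3, 4 and 5 with doxycycline, against 2.12, 1.72 and 1.69 CPM without it. Its treated libraries lay under all untreated ones, as in 10.5% of tested genes with a mean of 0.3 to 3 CPM. Tap1 differed several-fold between its treated lines, and its log2 fold change of -1.91 (SE 0.47) did not pass (edgeR adjusted p = 0.0724). Tap2 was at 0.366, 0.429 and 0.153 CPM with doxycycline, against 1.27, 1.25 and 1.31 CPM without it. Tap2 fell by 1.99 on the log2 scale (SE 0.40, edgeR adjusted p = 0.0316). In line 5 with doxycycline each of these 2 genes had 4 counts.

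Tapbp (ENSMUSG00000024308, 33915899 to 33929292, plus strand) encodes tapasin, which holds empty class I molecules at the transporter. It was at 25.6, 16.4 and 17.4 CPM in lines 3, 4 and 5 with doxycycline, against 25.1, 25.3 and 22.8 CPM without it, and the groups overlapped. Its log2 fold change was -0.30 (SE 0.18, edgeR adjusted p = 0.45). Other genes cover 29.0% of its exonic bases, 18.5% of those of Tap2 and 14.7% of those of Psmb8, mostly on the opposite strand, and without a stated strand setting such reads cannot be told apart.

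Of the 3 immunoproteasome subunits, Psmb8 and Psmb9 fell and Psmb10 did not pass. Psmb8 (ENSMUSG00000024338, chromosome 17, 34197721 to 34201454, plus strand), which takes the place of Psmb5, was at 0.183, 0.429 and 0.306 CPM in lines 3, 4 and 5 with doxycycline, against 1.69, 1.02 and 1.19 CPM without it. Psmb9 (ENSMUSG00000096727, chromosome 17, 34181987 to 34187764, minus strand), which takes the place of Psmb6, was at 0.504, 0.429 and 0.306 CPM with doxycycline, against 1.54, 1.69 and 1.08 CPM without it. Both fell, with no overlap of the groups, by log2 fold changes of -2.03 (SE 0.41, edgeR adjusted p = 0.0314) for Psmb8 and -1.79 (SE 0.36, edgeR adjusted p = 0.0322) for Psmb9. Of tested genes with a mean of 0.3 to 3 CPM, 10.5% were lower with no overlap of the groups. Psmb10 (ENSMUSG00000031897, chromosome 8, 105935735 to 105938444, minus strand), which takes the place of Psmb7, was at 63.5, 61.4 and 55.9 CPM with doxycycline, against 53.0, 44.9 and 48.2 CPM without it. Its treated libraries lay above all untreated ones, as they did for 11.3% of all genes tested and 11.7% of those from 10 CPM upwards, but the log2 fold change of 0.31 (SE 0.12) did not pass (edgeR adjusted p = 0.253).

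Set against the constitutive subunit it replaces, and per length of the longest coding transcript, Psmb8 made up 0.149 ± 0.0724% of the pair with doxycycline and 0.733 ± 0.205% without it (SD, n = 3 each). Psmb9 made up 0.0501 ± 0.0114% with doxycycline and 0.233 ± 0.0597% without it (SD, n = 3 each). Neither pair overlapped between the groups, and both gave p = 0.1 by a 2-sided exact permutation test. That is the smallest p of this test, which did not use the pairing by line. Psmb8 and Psmb9 passed the filter on low counts through the untreated libraries, so these 2 comparisons are a description. Psmb10 made up 23.6 ± 1.61% of its pair with doxycycline and 23.2 ± 1.38% without it (SD, n = 3 each; 2-sided exact permutation p = 0.7). The constitutive partners Psmb5, Psmb6 and Psmb7 had log2 fold changes of 0.26, 0.42 and 0.28, and none passed (edgeR adjusted p = 0.327, 0.169 and 0.263). Of the 50-base stretches of Psmb5, 57.1% occur in transcripts of other genes, most often Gm3375, and the effect of such shared stretches on its count was not tested.

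**Figure D3:**
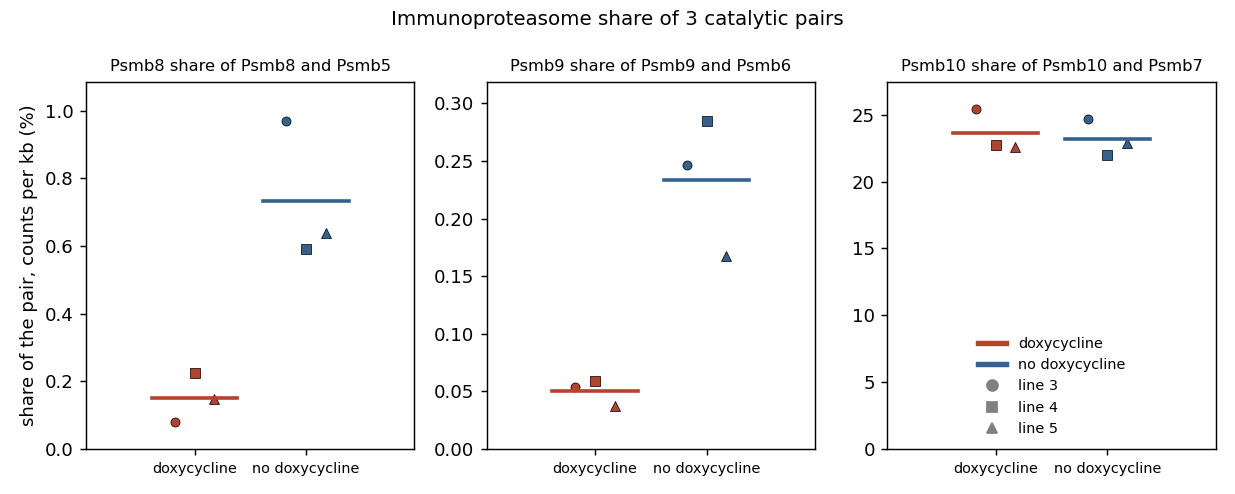
Share of each immunoproteasome subunit in the pair with its constitutive partner (percent, counts per kilobase of transcript) in each library, with doxycycline (red, left) and without it (blue, right); symbols are lines and bars are means. Psmb8 and Psmb9 are under 1% of their pairs and lower with doxycycline in every line, while the means of Psmb10 are 23.6% with doxycycline and 23.2% without it.

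Nlrc5 (ENSMUSG00000074151, chromosome 8, 94434356 to 94527272, plus strand), whose product is the transactivator of class I promoters, was at 0.870, 0.495 and 0.574 CPM in lines 3, 4 and 5 with doxycycline, against 2.81, 2.86 and 1.42 CPM without it. It fell by 1.88 on the log2 scale (SE 0.39, edgeR adjusted p = 0.0343). Its treated libraries lay under all untreated ones, as in 10.5% of tested genes with a mean of 0.3 to 3 CPM. The untreated library of line 5 was lower than the other 2 untreated ones.

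Compared per kilobase of transcript, levels with doxycycline were highest for H2-D1, at 78.5 ± 18.9 CPM per kilobase, then B2m at 69.6 ± 23.5, Psmb10 at 46.0 ± 3.03 and H2-K1 at 39.9 ± 6.68 CPM per kilobase (SD, n = 3 each). Without doxycycline the order was H2-D1 at 101 ± 9.95, B2m at 78.3 ± 2.14, H2-K1 at 69.5 ± 8.86 and Psmb10 at 37.1 ± 3.11 CPM per kilobase (SD, n = 3 each). Psmb10 thus stood next above H2-K1 with doxycycline, where the libraries of the 2 genes overlapped, and next below it without doxycycline, where they did not. With doxycycline B2m, at 45.0 to 91.7 CPM per kilobase, overlapped H2-D1, Psmb10 and H2-K1, and without it B2m overlapped H2-K1 alone among the 10 genes. Tapbp followed, at 6.84 ± 1.73 with doxycycline and 8.43 ± 0.472 CPM per kilobase without it (SD, n = 3 each). The lower 5 genes ranged from Psmb9, at 0.306 ± 0.0737 with doxycycline and 1.06 ± 0.236 CPM per kilobase without it, to Nlrc5, at 0.0853 ± 0.0260 with doxycycline and 0.312 ± 0.108 CPM per kilobase without it (SD, n = 3 each). Among these 5, each overlapped its neighbour in level, except Tap1 and Tap2 without doxycycline.

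The filter on low counts asked for 0.387 CPM in 3 libraries. Nlrc5 reached it in all 3 treated libraries, Tap1 and Psmb9 in 2, and Tap2 and Psmb8 in 1, while all 5 reached it in the 3 untreated ones. The last 4 genes therefore entered the test through the untreated libraries, and their number among the calls is a description and no support. With no filter, 6 of the 10 genes passed, and 2.30% of all genes fell.

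Markers of lymphocytes moved in the same direction as these 5 genes. The 20 T and NK cell markers summed to 7.20 to 10.6 CPM with doxycycline and 34.6 to 44.2 CPM without it. Of the 17 tested 14 fell (Cd3e, Cd3d, Cd3g, Cd2, Cd5, Cd8a, Cd8b1, Cd4, Zap70, Trbc2, Nkg7, Gzma, Gzmb and Il2rb), where 1.32% of all genes tested fell. All 14 were under the filter on low counts in at least 1 treated library, and 13 of them in all 3, so they entered the test through the untreated libraries and their number is a description. Cd3d, the gene of a CD3 subunit that associates with the T cell receptor, had 0 counts in the 3 treated libraries and 1.11 to 1.45 CPM in the untreated ones. Of 2 tested B cell genes Ighm, the immunoglobulin mu heavy chain, fell, with 10 counts with doxycycline and 229 without it, also by way of the untreated libraries, while the defining marker Ms4a1 had 0 counts with doxycycline and 1 count without it.

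Markers of macrophages and myeloid cells went the other way. Of 19 tested 15 rose (Adgre1, Csf1r, Lyz2, Mpeg1, Itgam, Fcgr1, C1qa, C1qb, C1qc, Tyrobp, Spi1, Ctss, Mmp12, Gpnmb and Cybb), where 0.963% of all genes rose. Of the 15, 11 were under the filter in at least 1 untreated library, and 7 in all 3. These genes entered the test through the treated libraries, so the number that rose is a description. Adgre1, which encodes the macrophage marker F4/80, stood at 6.89 to 15.6 CPM with doxycycline and 0 to 0.0385 CPM without it. The whole list summed to 438 to 661 CPM with doxycycline and 407 to 472 CPM without it, but most of the untreated sum was the mannose receptor Mrc1, at 160, 228 and 381 CPM in lines 3, 4 and 5 with doxycycline, against 414, 386 and 349 CPM without it (edgeR adjusted p = 0.307). Without Mrc1 the other 18 genes summed to 193 to 433 CPM with doxycycline and 57.1 to 58.3 CPM without it. Among genes listed for dendritic cells, Itgax rose, with 149 counts with doxycycline and 11 without it, and the chemokine receptor Ccr7 fell, with 63 counts with doxycycline and 331 without it. Itgax was under the filter in all 3 untreated libraries and entered the test through the treated ones, so its call is a description. The defining markers Flt3 and Xcr1 had 8 and 2 counts with doxycycline, and 3 and 1 without it. Of the epithelial list the tight junction gene Cldn4 fell, with 983 counts with doxycycline and 2305 without it. Of the mesenchymal list Thy1, which T cells also express in mice, fell, with 4 counts with doxycycline and 233 without it. Thy1 was under the filter in all 3 treated libraries and entered the test through the untreated ones, so its call is a description. The endothelial marker Pecam1, the 1 gene of its list tested, did not pass (edgeR adjusted p = 0.206). In bulk RNA fewer cells of a type and less RNA per cell cannot be told apart. Where the marker transcripts came from, and whether the cultures held such cells, was not tested.

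Summed over the 5 class I genes near 1 CPM, levels were 2.38, 2.61 and 1.49 CPM in lines 3, 4 and 5 with doxycycline, against 9.43, 8.54 and 6.68 CPM without it. That left 25.2%, 30.5% and 22.3% in lines 3, 4 and 5, where the T and NK cell markers were left at 22.1%, 16.7% and 30.5%. By these CPM sums line 4 kept most of the class I genes and least of the lymphocyte markers, and line 5 the reverse. In counts before scaling, the class I sum was left at 21.2%, 36.2% and 22.4%, least in line 3. Most of the treated lymphocyte sum was Lck, Trac and Trbc1, which did not pass. Trbc1 alone was at 2.38, 1.98 and 5.44 CPM in lines 3, 4 and 5 with doxycycline. The order of the lines, and the part of lymphocyte or macrophage RNA in the class I levels, were not tested.

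**Figure D4:**
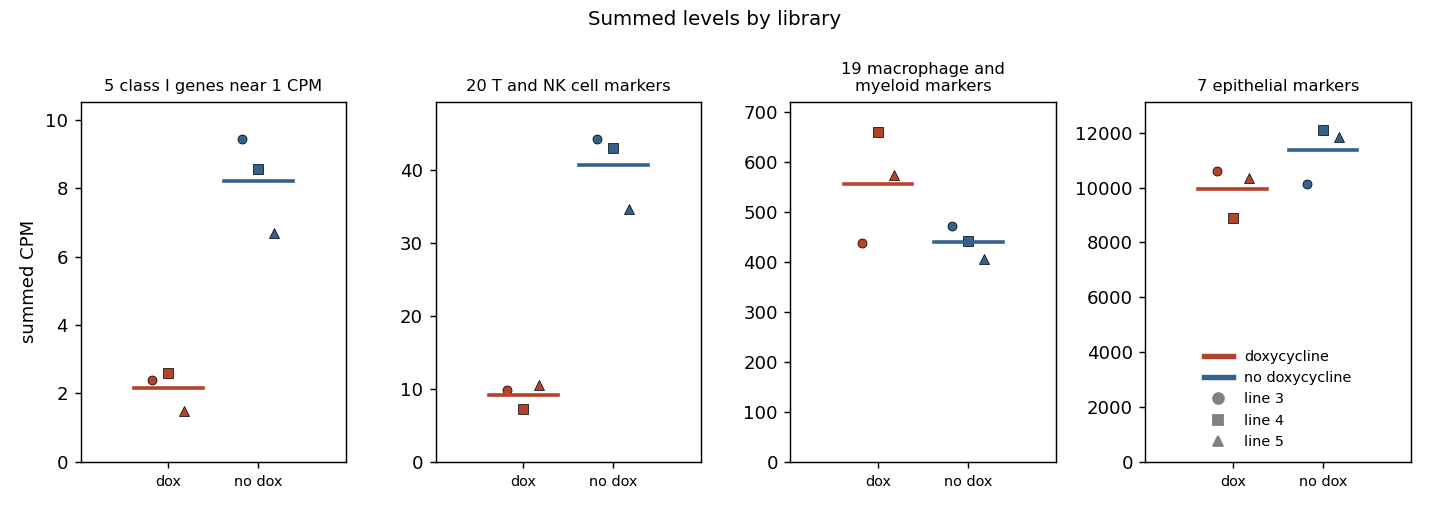
Summed CPM in each library of the 5 class I genes near 1 CPM and of 3 marker lists, with doxycycline (red, left) and without it (blue, right); symbols are lines and bars are means, and each panel has its own axis. The class I sum is 1.49 to 2.61 CPM with doxycycline and 6.68 to 9.43 CPM without it, and the T and NK cell sum is 7.20 to 10.6 CPM with doxycycline and 34.6 to 44.2 CPM without it. The macrophage and myeloid sum includes Mrc1, and its groups overlap.

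Among other class I molecules, 13 of 19 listed genes found were tested, of which 2 fell and 11 did not pass, with a median log2 fold change of -0.35 where that of all tested genes was 0.00311. The nonclassical genes H2-Q6 and H2-Q2 fell, on few counts: H2-Q6 had 4 counts over the 3 libraries with doxycycline and 107 without it, and H2-Q2 had 5 with doxycycline and 47 without it (edgeR adjusted p = 0.00417 and 0.0268). Both were under the filter in all 3 treated libraries and entered the test through the untreated ones, so these 2 calls are a description. H2-Q4 was at 2.70, 1.42 and 0.727 CPM in lines 3, 4 and 5 with doxycycline, against 5.70, 4.74 and 4.68 CPM without it (edgeR adjusted p = 0.063). The most abundant, H2-T23, which encodes the ligand of inhibitory NK cell receptors Qa-1, was at 134 ± 39.9 CPM with doxycycline and 142 ± 7.74 CPM without it (SD, n = 3 each; edgeR adjusted p = 0.879). The genes of this family are alike in sequence, and their reads can be shared.

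The wider loading machinery gave no call with the settings used. Of the 19 genes of peptide loading and trimming 0 passed in edgeR, 2 were higher and 0 lower at an unadjusted p under 0.05, and DESeq2 and limma-voom called 0; of all genes tested 8.33% were higher and 7.96% lower at that p. The peptidase Thop1 passed as higher with length and GC offsets (adjusted p = 0.045), against an adjusted p of 0.288 without them and 0.0697 with the block beside them. The median log2 fold change of the list was 0.046. The chaperone BiP (Hspa5) was at 1387 ± 447 CPM with doxycycline and 1344 ± 98.6 CPM without it, and the disulfide isomerase Pdia3 at 1187 ± 207 CPM with doxycycline and 1126 ± 86.7 CPM without it (SD, n = 3 each). Of the 9 constitutive catalytic subunits and proteasome activators 0 passed in edgeR, 4 were higher and 0 lower at an unadjusted p under 0.05 (8.33% and 7.96% of all genes tested), and DESeq2 and limma-voom called 0. The most abundant, Psmb6 and the assembly factor Pomp, averaged 489 and 202 CPM with doxycycline, and 364 and 169 CPM without it. Their median log2 fold change was 0.26, and the activator subunit Psme2, which interferon induces in many cells, was at 182 ± 11.1 CPM with doxycycline and 138 ± 14.4 CPM without it (SD, n = 3 each; edgeR adjusted p = 0.148).

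Regulators of class I transcription and interferon signalling gave no call either. Of 31 regulators 0 passed in edgeR, with 4 lower and 1 higher at an unadjusted p under 0.05 (7.96% and 8.33% of all genes tested). DESeq2 called 1 lower and limma-voom 0, and the median log2 fold change was -0.10. The kinase Jak2, which relays interferon gamma signals, was at 88.0, 96.0 and 96.5 CPM in lines 3, 4 and 5 with doxycycline, against 144, 133 and 124 CPM without it (edgeR adjusted p = 0.0538). The most abundant regulator, the interferon gamma receptor chain Ifngr1, averaged 272 CPM with doxycycline and 286 CPM without it, and the interferon regulatory factor Irf1 averaged 75.0 CPM with doxycycline and 80.2 CPM without it. Atf1, which binds CRE-like elements such as the X2 box, was at 160 ± 10.9 CPM with doxycycline and 140.0 ± 6.28 CPM without it (SD, n = 3 each). Of 20 tested interferon targets 0 passed in edgeR, with 0 lower and 1 higher at an unadjusted p under 0.05 and 0 by DESeq2 or limma-voom. The median log2 fold change of the 20 targets was -0.25, and 13 of them lay below 0, where 49.6% of all genes tested did. The most abundant were Ifi35, at 22.5 ± 2.12 CPM with doxycycline and 21.5 ± 0.285 CPM without it, and the GTPase gene Irgm1, at 20.4 ± 2.48 CPM with doxycycline and 20.1 ± 0.632 CPM without it (SD, n = 3 each). Of 9 class II genes 5 were tested and 0 passed in edgeR, with 0 at an unadjusted p under 0.05 and 0 by DESeq2 or limma-voom, and the list summed to 2.49 to 4.26 CPM with doxycycline and 3.69 to 5.21 CPM without it. The median log2 fold change of the 5 class II genes tested was -0.38, and 4 of them lay below 0. The invariant chain gene Cd74 averaged 0.916 CPM with doxycycline and 1.65 CPM without it, and H2-DMb1, part of the class II peptide editor, averaged 0.908 CPM with doxycycline and 0.903 CPM without it.

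No class I gene passed the test for a difference between the 3 lines. The edgeR test of the line terms beside doxycycline called 0 of the 10, with 0 at an unadjusted p under 0.05, and DESeq2 and limma-voom called 0. Over all genes edgeR called 0 (0%), and 4.59% had an unadjusted p under 0.05; DESeq2 called 0.110% of all genes. No alternative called a class I gene here, while over all genes 0.889% passed with no filter. Over all genes 2.22%, 0.134% and 0.870% passed without the untreated library of line 3, 4 or 5, 0.0805% without the treated one of line 5, and 0.0408% without both libraries of line 5. With 2 libraries per line this test has little room, and a difference between the lines cannot be called absent. Across the 6 libraries and among 9784 genes with at least 5 CPM, levels most like those of H2-K1 were found for Nub1, Tor4a and Tmem163 (Pearson r of log2 CPM 0.991, 0.991 and 0.990). For B2m they were Sqle, Syngr1 and Fkbp9 (r = 0.991, 0.990 and 0.983), and for Psmb8 they were Dync1i2, Zfp799 and Fxyd3 (r = 0.993, 0.992 and 0.987). These values were picked as the largest of many and are a description.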

How the data were processed

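RNA sequencing libraries of total RNA from 3 KP lines, each with and without doxycycline, were analysed. The authors deposited raw counts, 1 whole number per Ensembl gene and library, not normalized. The submitters' processing notes name STAR, HTSeq, Picard, CASAVA, bedtools, DESeq2 and, as build, mm10. For the annotation release, strand setting and read length the entry is: not given in the sources used here. The 5 rows that name no gene held 43.7% to 47.7% of reads and were left out.

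Symbols, positions and transcript lengths came from GENCODE M21 of the same build (48144 of 48526 identifiers), and Nrdc was matched as Nrd1 through RefSeq synonyms. The main model was fitted by edgeR 4.0.16 under R 4.3.3: filterByExpr, TMM factors, a quasi-likelihood F test between the conditions, and p-values adjusted over 14531 genes after Benjamini-Hochberg. Dividing the absolute log2 fold change by the root of F gave the SE. The procedure was tested on simulated data. Exact tests used SciPy 1.17.1. Alternatives were no filter, RLE scaling, the line as a block, length and GC offsets, DESeq2 1.42.0, limma-voom (limma 3.58.1), no macrophage or lymphocyte markers, and each library or line left out; scaling to total counts was added after the data were seen.

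Groups and line numbers came from the labels. The numbers pair the libraries because both of a number come from the same stable line; deviations from the group means correlated with r = 0.0048 to 0.0674 within lines and -0.102 to 0.067 between lines. The 10 genes and the other lists were chosen with earlier results of these data known. All 10 genes are named, and of other lists the genes that passed or, where none did, the 2 most abundant; The defining markers Cdh1, Ms4a1, Flt3 and Xcr1, and H2-Q4, H2-T23, Thop1, Jak2, Irf1, Psme2, Psmb5, Psmb7, Mrc1 and Pecam1, were named beside these after their values were seen.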

Additional observations from a re-analysis of the deposited data

Results flagged for a closer look

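Of the 10 genes, 3 had a higher level with doxycycline in line 3 and a lower one in lines 4 and 5. For B2m the log2 ratio of CPM with over without doxycycline was 0.22 in line 3, -0.15 in line 4 and -0.76 in line 5. For H2-D1 it was 0.16 in line 3, -0.73 in line 4 and -0.58 in line 5. For Tapbp it was 0.025 in line 3, -0.62 in line 4 and -0.39 in line 5, and scaling to total counts turned the value of line 3 to -0.09. Under that scaling B2m and H2-D1 in line 3 were at 0.11 and 0.05. Each line had 1 library per condition, so the difference between lines was not tested. The treated library of line 3 stood apart from the other treated ones, with a chi-square per degree of freedom of 108 and 80.9 against them, where they gave 35.8 against each other, and its part in this pattern was not tested.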

How the results depend on the processing

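Of the 10 class I genes 5 passed with the settings used, 0 with the line as a replicate block, and 2 with length and GC offsets, with or without the block. The number was 0 to 8 when 1 library was left out, and 2, 0 and 0 without both libraries of line 3, 4 or 5. With no filter or DESeq2 it was 6, and with RLE scaling, limma-voom or no macrophage and lymphocyte markers 5. For 9 of the 10 genes no alternative changed the direction. The log2 fold change of B2m, never called, was -0.41 to 0.064 with 1 library left out and 0.037 without line 5; it was -0.44 with length and GC offsets and -0.49 with the block beside them, against -0.17 with the settings used. That of Tapbp was -0.14 with the offsets, against -0.30. No alternative called a class I gene between the lines. The share of Psmb8 in its pair differed by -0.583 percentage points, by -1.05 without division by length and by -0.282 with the length of all exons; that of Psmb9 differed by -0.183, and by -0.309 without division by length. That of Psmb10 differed by 0.405 and by -0.525 to 1.16 with 1 library left out, and was negative without the treated library of line 3 or the untreated one of line 4. Among other lists, alternatives that kept the list in the fit called 5 to 17 T and NK markers lower (14 with the settings used), 8 to 15 macrophage markers higher (15), 0 to 4 other class I molecules lower (2) and 0 to 3 regulators lower (0). The cause of these changes was not tested. Near 1 CPM a library held 4 to 73 counts per gene, which limits the precision of the ratios of single lines.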

Other observations

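The order of the lines by Npm1 and by 2 abundant class I genes ran opposite ways. Npm1 was left at 3.39%, 13.2% and 20.8% of its untreated level in lines 3, 4 and 5. H2-K1 was left at 76.9%, 53.6% and 45.5%, and B2m at 117%, 89.8% and 59.2%. H2-D1, at 112%, 60.2% and 66.8%, and the 5 genes near 1 CPM did not keep this order in full: Nlrc5 was left at 30.9%, 17.3% and 40.4%, and Psmb9 at 32.7%, 25.5% and 28.5%. Psmb8 was left at 10.8%, 42.1% and 25.7%, least in line 3, as was Npm1. The abundant genes Tapbp, at 102%, 65.1% and 76.2%, and Psmb10, at 120%, 137% and 116%, did not keep the order either. With 3 lines no relation was tested.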
